A study of Mus musculus with 24 samples.

Results

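The 100 probes described here were shared by the microvascular endothelial cells (MECs) of the heart and the kidney, in that their levels were alike in both organs and low in retinal neurons. They were chosen from 20186 probes by level alone. Counts were divided by the total of the region and scaled to counts per 1e+06 (CPM), and each cell type was given the median CPM of its 6 regions plus 1. A probe was kept if it had at least 10 counts in at least 10 of the 12 kidney and heart regions, if its kidney and heart values lay within 3-fold of each other, and if the smaller of them was at least 3 times the neuronal value. Of 20186 probes, 1789 had enough counts, 1670 of these were within 3-fold, and 115 of these met the neuronal ratio. The 100 with the highest ratio were taken, and a rank below is the position in this order. The level of a probe in retinal MECs was not used, so whether the retina carried the set could be read from these data.

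The regions were CD31+ MECs of the kidney (renMECs), the heart (carMECs) and the retina (retMECs), and NeuN+ neuronal regions of the retina. All mice were C57BL/6J males. Diabetic mice had received streptozotocin, a toxin of insulin-producing beta cells, in citrate buffer at 50 mg/kg over 5 days at 8 weeks of age, non-diabetic mice received the buffer alone, and tissue was taken 2 months later. Each cell type had 3 non-diabetic and 3 diabetic regions, 24 in all, from 3 mice per status, and the labels did not tie regions to mice. P-values therefore measure the spread between regions, and regions of different cell types may come from the same mouse. For 2 of the diabetic carMEC regions, numbers 2 and 3, the labels give the organ but not the cell type. A region can hold several cells, and a lower count can come from fewer cells of a type or from less RNA per cell, which cannot be told apart here.

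MECs line capillaries, and CD31 (PECAM-1) is an adhesion molecule at their contacts. The capillaries of the heart form a continuous wall, those of the kidney glomerulus are fenestrated, and those of the retina form the inner blood-retinal barrier with tight junctions. NeuN is a nuclear protein of neurons. Transcripts common to MECs of several organs include those of general endothelial function, but no file used here links a probe ID to a gene, so none of the 100 could be named as a gene, no endothelial or other cell type marker could be looked up, and the labelled cell types were not checked against markers. No probe sequence is printed for the same reason. Probe IDs are given for 4 probes, and the others are named by rank.

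Total counts were 217736 to 1451915 in renMECs, 115269 to 521366 in carMECs, 78053 to 788146 in neuronal regions and 28722 to 342522 in retMECs. The number of counts sets the precision: 1 count was worth 0.689 CPM in the deepest renMEC region and 34.8 CPM in the shallowest retMEC region. The retMEC regions were on plate 1 and all others on plate 2, so any difference of retMECs from the other cell types cannot be told apart from the plate. Of the reads, 39.9 to 61.0% aligned to probe barcodes in retMECs, against 79.4 to 96.7% in the other cell types.

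By the rule, the shared probes were at like levels in both organs and at about the level of an average probe in neurons. Their median was 148 in renMECs, 149 in carMECs and 26.1 in neuronal regions (median CPM plus 1), against 25.4, 35.1 and 27.2 over all probes. These values chose the probes and are given as a description. Of the 100, 54 were higher in carMECs and 46 in renMECs, 66 lay within 1.5-fold, 5 were more than 2 times higher in carMECs, and 5 were so in renMECs. The ratio of the lower MEC value to the neuronal value had a median of 4.14 and a range of 3.13 to 109. It was 10 or more in 6 probes, between 5 and 10 in 25 and under 5 in 69. The last rank inside had a ratio of 3.13 and the first outside 3.12, and the first probe to fail the ratio had 2.99. A further 11 probes met the counts and the neuronal ratio but differed more than 3-fold between the organs.

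The rule kept most of the same probes when single regions were left out, with 87 to 95 of the 100 shared. Fewer were shared when the list was built from non-diabetic regions alone (71 of its 100 probes and of the 100) or from diabetic regions alone (58 of each). With 20 or more counts required, 67 probes passed, of which 60 were in the list.

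Summed over each region, the shared probes took 2.13 to 3.76% of the counts in the 6 renMEC regions (median 2.78%) and 2.09 to 4.23% in the 6 carMEC regions (median 3.03%). In neuronal regions they took 0.329 to 0.408% (median 0.381%). In retMECs they took 0.763%, 1.51% and 2.06% in the non-diabetic regions and 1.72%, 2.09% and 2.32% in the diabetic regions. Every retMEC region therefore lay above every neuronal region, and 4 of the 6 lay below every renMEC and carMEC region. The lowest retMEC share was that of non-diabetic region 1, the deepest of the 6.

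**Figure D1:**
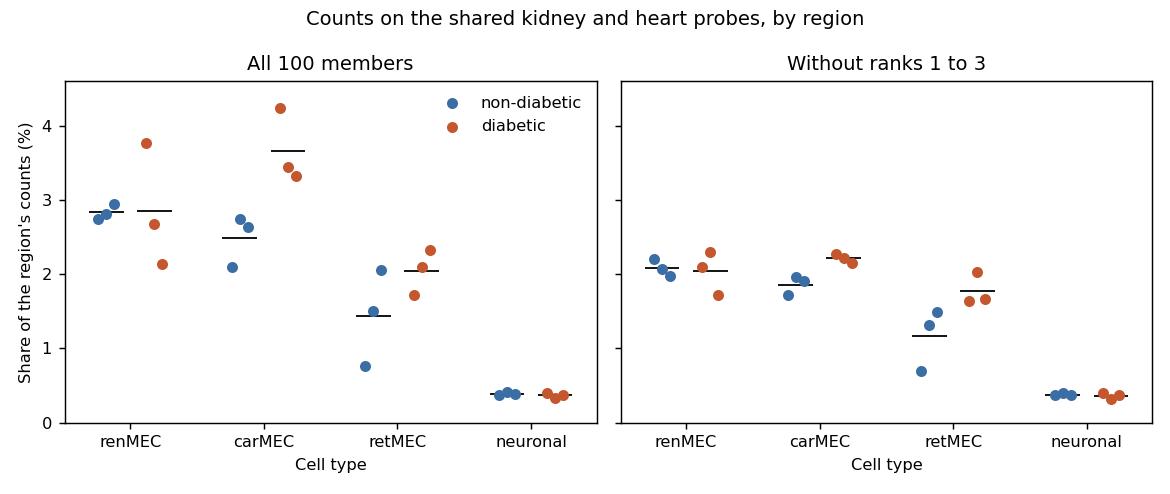
Share of each region's counts (%) that fell on the 100 shared probes (left) and on the 97 probes without ranks 1 to 3 (right), by cell type. Points are regions (3 non-diabetic and 3 diabetic per cell type) and bars are means; the neuronal regions lie at 0.329 to 0.408% on the left and the retMEC regions at 0.763 to 2.32%.

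The retina carried part of the set. In retMECs 59 of the 100 probes were at least 3 times their neuronal level, with a median ratio of 3.55 and a range of 0.450 to 61.0. The share over all 20186 probes was 3.11%, and over the 1789 probes with enough counts in kidney and heart it was 10.2%, with a median ratio of 1.18. Another 21 probes lay between 1.5 and 3 times the neuronal level, 20 lay under 1.5 times, and 3 of these were below it. In 50 probes every retMEC region was above every neuronal region, against 2.33% of all probes and 9.67% of the probes with enough counts. The neuronal level was itself used by the rule, so these ratios share one side with the choice of the probes. The number at 3 times or more was 54 to 61 when single regions were left out (2.96 to 4.74% of all probes). It was 41 with scaling to the 75th percentile (0.817%), 48 in the non-diabetic regions alone (4.06%) and 65 in the diabetic regions alone (10.6%). Of the probes with enough counts, 4.86%, 7.88% and 16.4% reached it in these settings, in the same order. The background thus moved as well.

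Against the other MECs, the retMEC level was above both organs in 28 probes, between them in 15 and below both in 57. In 21 probes it was more than 3 times below the lower organ. The kidney and heart values chose the probes for being high, and the retMEC values did not. Lower retMEC levels thus follow in part from the choice, and these classes were not counted over all probes. The probes with the highest kidney and heart ratio were not all carried: 5 of the 6 with a ratio of 10 or more reached 3 times the neuronal level in retMECs, as did 17 of the 25 between 5 and 10 and 37 of the 69 under 5. The 41 probes that were not carried had the higher median level in kidney, heart and neurons alike, at 178 in renMECs, 236 in carMECs and 41.1 in neuronal regions, against 118, 105 and 22.0 in the 59 that were carried. A high neuronal value itself makes a probe less likely to count as carried. The rule also ties the kidney and heart values to it, so this contrast follows in part from the definitions.

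**Figure D2:**
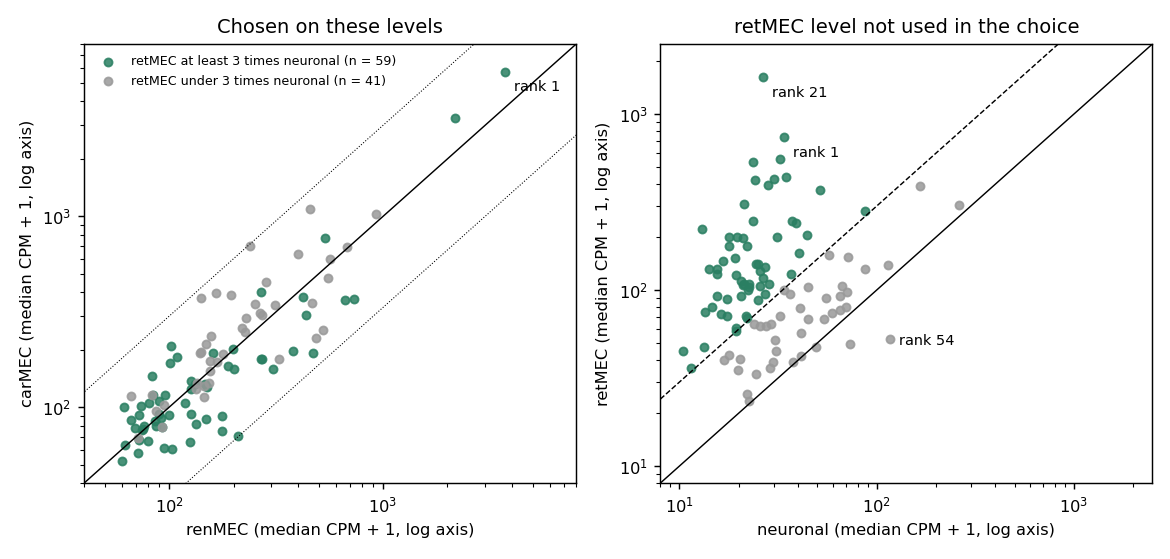
Levels of the 100 shared probes (median CPM of 6 regions plus 1, log axes), carMEC against renMEC on the left and retMEC against neuronal on the right. Green points are the 59 probes with retMEC at least 3 times neuronal and grey points the other 41; the solid line marks equal levels, dotted lines 3-fold either way and the dashed line retMEC 3 times neuronal.

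Rank 21 had the highest retMEC to neuronal ratio, 61.0. Its CPM in the non-diabetic retMEC regions was 339, 1027 and 1225, and in the diabetic ones 2019, 2368 and 2091. In renMECs it was between 147 and 263 in 5 regions and 1153 in diabetic region 2, in carMECs between 75.7 and 199.5, and in neuronal regions between 6.10 and 48.3. All 6 retMEC regions lay above every carMEC region. Its retMEC median was the highest of the shared probes, although rank 1 exceeded it in 4 of the 6 regions. Ranks 2 and 1 followed with ratios of 22.7 and 21.7.

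At the other end, rank 54 was lower in retMECs than in neurons. Its CPM was 34.8 to 105 in retMECs, all 6 below the neuronal range of 106 to 201, while renMECs had 207 to 1132 and carMECs 383 to 619. Rank 98 had 23.3 to 89.0 CPM in retMECs and 53.5 to 102 in neurons, with overlap. Rank 20 had 22.2 to 75.2 CPM in retMECs and 30.5 to 65.4 in neurons, which also overlapped. Single retMEC values rest on few counts: for rank 54 the 5 regions other than non-diabetic region 1 had 1 to 9 counts.

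To test probes in regions that had not chosen them, the rule was applied to the regions of 1 status (10 counts in at least 5 of 6 regions, otherwise as above) and the 100 top probes were compared with neurons in the other status by edgeR's quasi-likelihood test over all probes. Of the 100 probes chosen in diabetic regions, 97 were higher in non-diabetic renMECs than in non-diabetic neurons (11.5% of all 18965 probes tested were), and 85 were higher in carMECs (7.38%). In retMECs 39 were higher (2.34% of all probes) and 0 were lower (5.30%). At an unadjusted p under 0.05 the numbers for retMECs were 58 higher and 0 lower, against 9.73% and 11.1% of all probes, and DESeq2 called 38 higher and 0 lower of the 97 it tested, against 2.95% and 10.3% of 6094 probes. Of the 100 probes chosen in non-diabetic regions, 87 could be tested in diabetic regions. Of these, 84 were higher in renMECs (25.6% of 3295 probes tested), 76 in carMECs (14.5%) and 42 in retMECs (9.32%), and 1 was lower in retMECs (15.0%). The retMEC count in non-diabetic regions was 20 without neuronal region 2 (191 of all 19175 probes) and 65 with total-count scaling. That scaling also turned the split of all calls, from 443 higher and 1006 lower to 2025 higher (10.7%) and 545 lower in non-diabetic regions, and from 307 and 494 to 574 and 295 in diabetic regions. The retMEC comparison carries the difference in plate, and regions of the same mouse may stand on both sides of it. The listed probes had to reach a floor of counts in kidney and heart, and the backgrounds here were all probes tested, without that floor. The distance between list and background can come in part from this. Shares over the probes with enough counts were not computed for these tests.

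**Figure D3:**
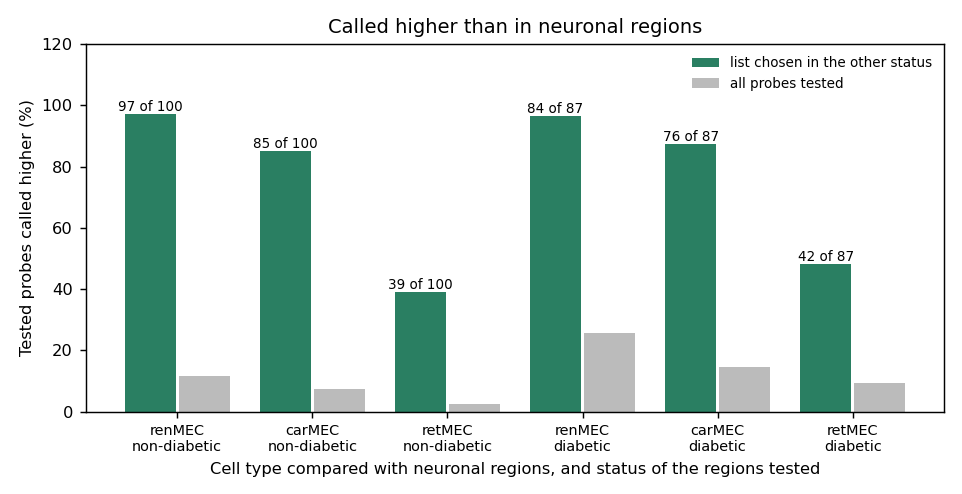
Percentage of tested probes called higher than in neuronal regions (edgeR, adjusted p under 0.05), for the 100-probe lists chosen in the regions of the other status (green, with the number called of the number tested) and for all probes tested (grey). In each of the 6 comparisons the list stands above the background, from 39 of 100 in non-diabetic retMECs to 97 of 100 in non-diabetic renMECs. The lists had to reach a floor of counts in kidney and heart, and the background did not.

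The spread of the shared probes between regions differed by cell type. The median SD of log2(CPM + 1) over the 6 regions was 0.33 in carMECs, 0.43 in renMECs, 0.68 in neuronal regions and 0.81 in retMECs. Between 16 and 99 of the 100 probes had 10 counts or more in a retMEC region, and 88 probes had a count in all 6.

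Ranks 1 and 2 had the highest levels of the list in kidney and heart, and rank 3, which did not, varied with them. Rank 1 (RTS0068460) had 3110, 4329 and 5561 CPM in non-diabetic renMECs and 9561, 2227 and 2246 CPM in diabetic renMECs. It had 2188, 4634 and 4252 CPM in non-diabetic carMECs and 11832, 7097 and 6828 CPM in diabetic carMECs. In neurons it lay between 21.5 and 73.6 CPM. In retMECs it was uneven, at 380, 1051 and 3393 CPM in the non-diabetic and 430, 313 and 3759 CPM in the diabetic regions, so that 1 region of each status reached the kidney range and the other 4 stayed below it.

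Ranks 2 and 3 moved with rank 1. Over the 12 renMEC and carMEC regions the correlation of log2(CPM + 1) with rank 1 was 0.9975 for rank 2 and 0.970 for rank 3, as a description over regions in which the probes share one total, and no other shared probe passed 0.9. The median over the other shared probes was 0.16. The ratio of rank 1 to rank 2 was 1.61 to 1.75 in renMECs and 1.69 to 1.91 in carMECs. The 3 probe IDs lie within 4 consecutive numbers, and what they target is not given in the sources used here. Together the 3 took 0.376 to 1.67% of the counts in renMECs, 0.376 to 1.96% in carMECs, 0.0592 to 0.654% in retMECs and 0.00384 to 0.0129% in neurons.

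Diabetes comparisons used the status of the regions, which the rule did not. In carMECs 5 of the 100 shared probes rose in diabetes and 1 fell (edgeR, adjusted p under 0.05). Of all 3247 probes tested 0.339% rose (11 probes) and 0.585% fell (19 probes), and of the 1686 of these with enough counts in kidney and heart 0.474% rose and 0.652% fell. The 5 that rose were ranks 1 to 5, the probes with the highest ratio. The ratio takes the lower organ, which was the kidney for ranks 1 to 4 and the heart for rank 5 (377 against 421). That heart level pools both statuses, so the rise of rank 5 bears on its own rank. The median log2 change was 0.10 over the shared probes and -0.11 over all probes tested, and 62 of the 100 were above 0. The rule's floor of 10 counts bears most on the shallower diabetic carMEC regions. There 98, 85 and 82 of the shared probes reached it, against 100 in each non-diabetic carMEC region. Probes low in diabetic carMECs could thus miss the list, so the medians and the direction of the calls are not free of the choice.

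Rank 5 (RTS0081549) had the largest rise of the 5. Its CPM was 120, 222 and 184 in non-diabetic and 613, 652 and 529 in diabetic carMECs, with no overlap (log2 1.64, SE 0.23, edgeR adjusted p = 7.6e-10). In renMECs the groups overlapped, at 441, 330 and 290 CPM against 487, 551 and 398 CPM (log2 0.22, SE 0.21, edgeR adjusted p = 0.67). The difference between carMECs and renMECs was itself tested, and rank 5 was the 1 shared probe of 100 that passed (log2 1.42, SE 0.31, edgeR adjusted p = 0.018), against 0.128% of 13332 probes. In retMECs its CPM was 96.3, 409 and 479 in non-diabetic and 193, 522 and 445 in diabetic regions, which overlapped. The difference did not pass without non-diabetic renMEC region 1, non-diabetic carMEC region 1 or diabetic carMEC region 1 or 2 (log2 1.18 to 1.58 over all regions left out in turn, edgeR adjusted p up to 0.13).

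Rank 1 rose in carMECs by 1.06 on the log2 scale (SE 0.19, edgeR adjusted p = 3.3e-05), and the 3 diabetic regions, given above, lay over the 3 non-diabetic ones. Rank 2 had 1295, 2712 and 2480 CPM in non-diabetic and 6203, 4104 and 3826 CPM in diabetic carMECs (log2 0.97, SE 0.19, edgeR adjusted p = 0.00033). Rank 3 had 278, 568 and 564 CPM against 1533, 1011 and 972 CPM (log2 1.17, SE 0.21, edgeR adjusted p = 3.3e-05). Ranks 1 to 3 moved together over the regions, as given above, so these are not independent observations. In renMECs the change of ranks 1 to 3 was between -0.13 and -0.09 on the log2 scale with SE of 0.72 to 0.77.

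Rank 4 had 442, 454 and 524 CPM in non-diabetic and 874, 911 and 954 CPM in diabetic carMECs, without overlap (log2 0.80, SE 0.21, edgeR adjusted p = 0.031). In renMECs it had 250, 224 and 313 CPM against 221, 68.9 and 264 CPM (log2 -0.71, SE 0.41, edgeR adjusted p = 0.45). The retina did not carry rank 4: its retMEC CPM was 0 to 104, and its neuronal CPM 8.18 to 25.6.

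Rank 68 was the shared probe that fell in carMECs, and it fell in renMECs too. In carMECs it had 314, 336 and 326 CPM in non-diabetic and 189, 192 and 130 CPM in diabetic regions (log2 -1.06, SE 0.24, edgeR adjusted p = 0.0039). In renMECs it had 795, 562 and 645 CPM against 392, 285 and 482 CPM (log2 -1.01, SE 0.22, edgeR adjusted p = 0.0075). The groups did not overlap in either organ. No regions were shared between these comparisons. In retMECs it had 43.8, 70.0 and 98.5 CPM against 118, 209 and 111 CPM, from 5 to 15 counts a region.

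The heart counts rest on few regions. Without diabetic carMEC region 1, 1 shared probe rose and 0 fell (0.0689% and 0.0138% of all probes), and without both diabetic regions whose labels do not name MECs 2 rose and 0 fell (0.0275% and 0%). With TMM scaling 9 rose and 1 fell, and the split of all calls turned from 11 higher and 19 lower to 26 and 5; with total counts it was 17 and 6. In 1 edgeR model of all 24 regions 0 passed (before adjustment 8 were higher and 2 lower at p under 0.05, against 0.779% and 4.43% of all probes). Rank 5 passed in 12 of its 13 alternatives, all but the model of all 24 regions. Rank 3 passed in 11 of 13, rank 2 in 9, ranks 1 and 68 in 8 and rank 4 in 4, and their log2 changes stayed between 0.69 and 1.54 for ranks 1 to 4 and between -1.16 and -0.85 for rank 68. Diabetic carMEC region 1 decided the calls of ranks 1 to 4 and 68, non-diabetic region 3 that of rank 1, diabetic region 3 that of rank 68, and each region but non-diabetic region 3 that of rank 4.

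Without ranks 1 to 3, the other 97 probes took 1.71%, 1.96% and 1.90% of the counts in the non-diabetic carMEC regions and 2.28%, 2.22% and 2.15% in the diabetic ones, which did not overlap. Ranks 1 to 3 alone took 0.376 to 0.791% in the non-diabetic and 1.16 to 1.96% in the diabetic carMEC regions. Diabetic carMEC libraries were the shallower ones, at 115269 to 153319 counts against 211272 to 521366, and the part of depth in these shares was not tested. The rule's floor of counts, described above, can also keep probes low in diabetic carMECs out of the list. The shares are thus not free of the choice. The 97 include ranks 4 and 5, which rose in carMECs, and no share of other probes was computed for comparison.

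**Figure D4:**
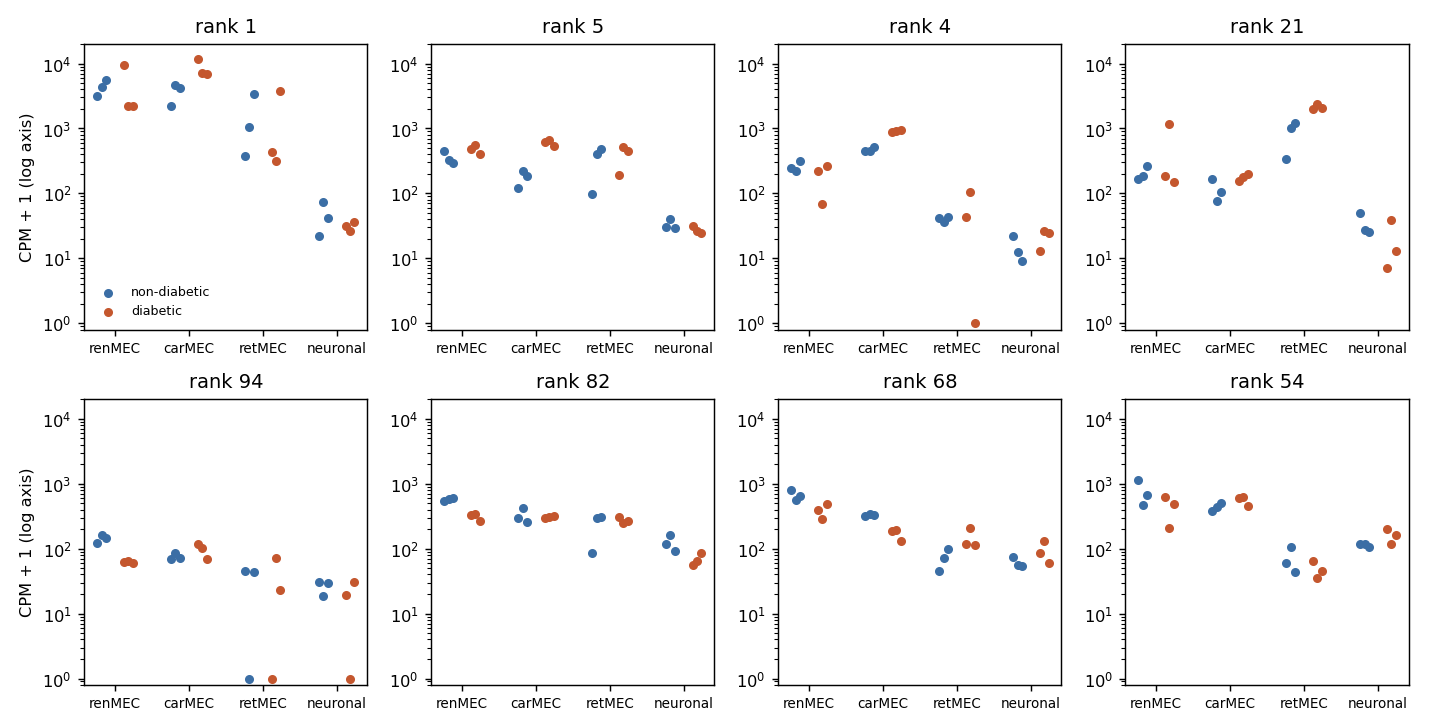
CPM plus 1 (log axis) of 8 shared probes in all 24 regions, by cell type; points are regions, 3 non-diabetic and 3 diabetic per cell type. Ranks 1, 4 and 5 were higher in all 3 diabetic than in all 3 non-diabetic carMEC regions, ranks 94, 82 and 68 were lower in all 3 diabetic renMEC regions, rank 21 was higher in every retMEC than in every carMEC region and rank 54 lower in every retMEC than in every neuronal region.

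In renMECs most calls were falls: 15 of the 100 shared probes fell in diabetes and 1 rose. Of all 9486 probes tested 3.25% fell and 0.464% rose, and of the 1785 with enough counts in kidney and heart 6.44% fell and 0.728% rose. The log2 changes of the 15 ran from -1.44 to -0.77 with a median of -1.05. They lay between ranks 18 and 94, so none of the first 17 was among them, and thus none of the probes that rose in carMECs. The median log2 change was -0.16 over the shared probes and -0.09 over all probes tested, and 41 of the 100 were above 0. In carMECs 13 of the 15 probes that fell were below 0 as well, with a median log2 change of -0.32 over the 15.

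Rank 94 (RTS0061437) fell with the smallest p. It had 120, 163 and 146 CPM in non-diabetic and 61.6, 64.3 and 59.9 CPM in diabetic renMECs (log2 -1.42, SE 0.25, edgeR adjusted p = 0.0010). The diabetic values rest on 22, 14 and 20 counts and did not overlap the non-diabetic ones. In carMECs it had 68.9, 85.2 and 71.0 CPM against 117, 100.3 and 69.4 CPM (log2 0.26, SE 0.31, edgeR adjusted p = 0.87), and the difference between the organs did not pass (log2 1.67, SE 0.41, edgeR adjusted p = 0.061).

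Rank 82 (RTS0068801) had 533, 589 and 609.5 CPM in non-diabetic and 325, 335 and 267 CPM in diabetic renMECs (log2 -1.13, SE 0.20, edgeR adjusted p = 0.0013). These groups did not overlap either. Its carMEC values were 294, 416 and 257 CPM against 293, 309 and 312 CPM, with overlap, and the difference between the organs did not pass (log2 0.92, SE 0.30, edgeR adjusted p = 0.28).

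Of the next 3 by p, rank 47 had 694, 570 and 701 CPM in non-diabetic and 395, 161 and 282 CPM in diabetic renMECs (log2 -1.44, SE 0.26, edgeR adjusted p = 0.0020). Rank 45 had 193, 163 and 174 CPM against 70.0, 115 and 83.9 CPM (log2 -1.24, SE 0.25, edgeR adjusted p = 0.0035). Rank 20 had 345, 414 and 416 CPM against 224, 276 and 159 CPM (log2 -1.07, SE 0.23, edgeR adjusted p = 0.0054). In all 3 every diabetic region was below every non-diabetic one. Over the 16 shared probes that passed in renMECs, the groups were apart in 15 and overlapped in 1. These probes were picked by p in the same regions, so the separation follows in part from that choice. It was not counted over all probes.

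The 1 probe that rose in renMECs was rank 34, named here after its values were seen. It had 106, 114 and 70.3 CPM in non-diabetic and 291, 138 and 246 CPM in diabetic renMECs (log2 1.07, SE 0.26, edgeR adjusted p = 0.017). In carMECs it had 94.5, 104 and 95.9 CPM against 189, 167 and 199.5 CPM, also without overlap, but it did not pass over all probes (log2 0.78, SE 0.27, edgeR adjusted p = 0.20).

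Fewer shared probes passed in renMECs without non-diabetic region 3, the deepest library (4 fell, 0 rose), without diabetic region 1 (10 fell, 0 rose) and with total-count scaling (8 fell, 1 rose). Of all probes 0.677%, 1.499% and 1.62% fell in these fits and 0.0607%, 0.179% and 1.26% rose, so the count over all probes dropped as well, and total-count scaling moved the split of all calls from 44 higher and 308 lower to 110 and 141. Ranks 94, 82, 47 and 45 passed in all 12 alternatives, rank 20 in 11 (not without non-diabetic region 3), rank 34 in 9 (not without non-diabetic region 3 or diabetic region 1 or 3) and rank 68 in 9 (not without non-diabetic region 1 or 3, nor in 1 model of all 24 regions), with log2 changes of -1.24 to -0.84, 0.85 to 1.33 and -1.20 to -0.78. With total counts in place of the 75th percentile, the median log2 change of all probes tested in renMECs went from -0.09 to 0.14 and that of the shared probes from -0.16 to 0.07, and with TMM the carMEC medians went from -0.11 to 0.10 and from 0.10 to 0.29. The sign of the median of all probes thus depended on the scaling in both organs, and that of the shared probes in renMECs. In carMECs the median of the shared probes lay above that of all probes under the 75th percentile, TMM and total counts, with the limit of the count floor given above. In renMECs it lay below under these 3, but above with DESeq2 (-0.27 against -0.44, over the probes with an adjusted p) and without diabetic region 3 (-0.04 against -0.05).

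The probes that fell in renMECs were mostly those that the retina did not carry. Of the 41 shared probes under 3 times the neuronal level in retMECs, 13 (31.7%) fell in diabetic renMECs, against 2 of the 59 (3.39%) at 3 times or more. The 41 had the higher median level in renMECs (178 against 118), so calls may have been easier to reach among them. The median log2 change in renMECs was -0.68 in the first class, where 36 of 41 were below 0, and 0.13 in the second, where 23 of 59 were. Among the other 1685 probes with enough counts, 6.08% of the 1562 under 3 times and 4.07% of the 123 at 3 times or more fell, and the medians were -0.28 and 0.06. Retinal levels and the renMEC comparison have no regions in common, but they share mice. Genes are not independent replicates, and no test was made of this split. The 15 probes that fell had retMEC to neuronal ratios of 0.973 to 8.40 with a median of 1.51.

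In carMECs the same 15 probes had a median log2 change of -0.32, 13 of them below 0, with 1 (rank 68) past the adjusted threshold and 3 at an unadjusted p under 0.05. The carMEC medians of the retinal classes were -0.06 for the 41 probes under 3 times the neuronal level and 0.18 for the 59 others.

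**Figure D5:**
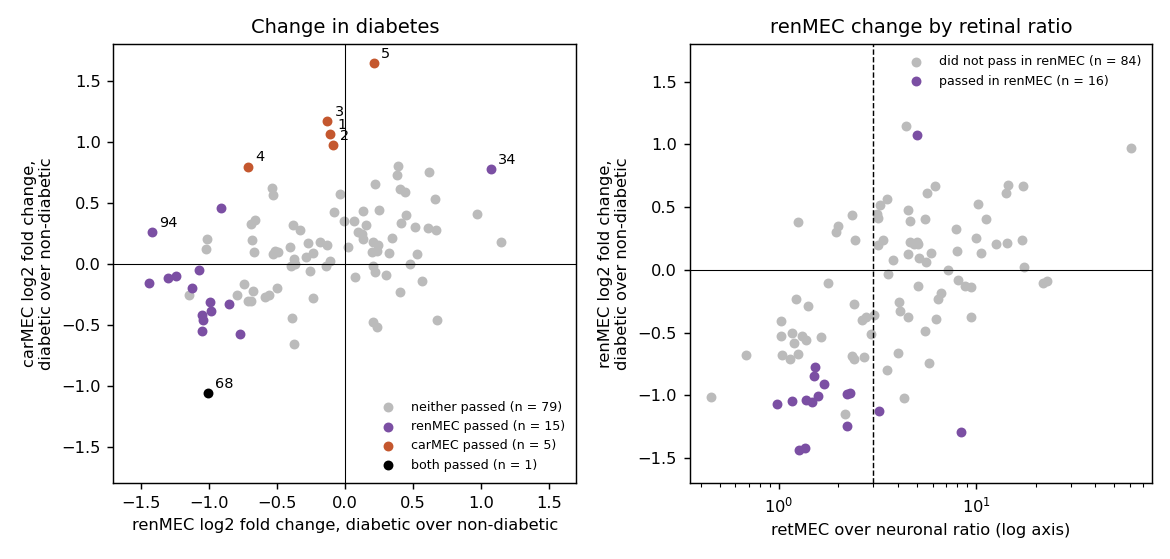
Log2 fold changes (diabetic over non-diabetic) of the 100 shared probes, carMEC against renMEC on the left with ranks beside some points, and renMEC against the retMEC to neuronal ratio (log axis, dashed line at 3) on the right. Of the 16 probes past an edgeR adjusted p of 0.05 in renMECs, 13 of the 15 that fell lie left of the dashed line; 6 passed in carMECs, with rank 68 passing in both.

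In retMECs 37 of the 100 shared probes had enough counts to be tested for diabetes, and edgeR called 0 of them and 0% of the 699 probes tested. At an unadjusted p under 0.05 it had 1 higher and 0 lower, and DESeq2 called 0. On simulated counts at these depths 20% of 4-fold changes were found, so changes of this size were mostly missed there, by the filter or by the test. Of the 699 simulated probes 486 were tested, and the share found among tested probes alone was not computed. The median log2 change was 0.63 over the 37 and 0.37 over all probes tested. Without the filter on counts it was 0.30 over the 100 shared probes and -0.36 over 20175 probes. Without non-diabetic region 1 it was 0.21 over the shared probes tested and -0.03 over all probes tested. The sign over all probes thus depended on the filter and on 1 region, and the medians are given as a description. Rank 21, whose diabetic retMEC values lay above all non-diabetic ones, did not pass (log2 1.20, SE 0.92, edgeR adjusted p = 0.98).

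In neuronal regions 20 of the shared probes could be tested, and 1 rose (0.145% of 4135 probes rose). This was rank 53, with 137, 133 and 123 CPM in non-diabetic and 421, 192 and 362 CPM in diabetic neuronal regions (log2 1.38, SE 0.24, edgeR adjusted p = 2.6e-05). It did not pass in 1 model of all 24 regions. In renMECs it had 406 to 668 CPM against 684 to 914 CPM, and in carMECs 511 to 648 CPM against 729 to 1141 CPM, without overlap in either, and neither passed over all probes (log2 0.44 and 0.59, edgeR adjusted p = 0.27 and 0.24).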

How the data were processed

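Probes of the GeoMx Mouse Whole Transcriptome Atlas were counted in 24 regions of formalin-fixed sections. The authors deposited 1 list of raw counts per region, made with GeoMx NGS Pipeline 2.3.4 per the labels: reads were aligned to probe barcodes and merged by molecular identifier. The authors' quality control and 75th percentile scaling are not in these counts, and a probe that is not listed was taken as 0. Intervals of counting error are not given, since regions are the replicates.

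The shared probes and all lists were chosen with earlier results of these data known, and every value of kidney, heart or neuronal level that chose them is a description. Diabetes was tested within the 6 regions of each cell type, and the difference between carMECs and renMECs over their 12 regions, with edgeR 4.0.16 (R 4.3.3; robust quasi-likelihood test, upper-quartile factors at the 75th percentile, filter at 10 counts, Benjamini-Hochberg adjusted p under 0.05) over all probes. Alternatives were TMM, total counts, no filter, DESeq2 1.42.0, a replicate block, 1 model of all 24 regions, the methods' t-test on scaled counts (p under 0.05, fold over 1.5) and each region left out; the fit without both heart regions whose labels do not name MECs, the lists of 1 status in renMECs and carMECs and the shares without ranks 1 to 3 were added after seeing the data. Same-numbered regions were not paired: in 0 of 28 pairs of groups were all their correlations over 0.1. With 200 of the probes changed in simulated counts, 2-fold and 4-fold changes were recovered at 38 and 85% in renMECs, 33 and 81% in carMECs, 44 and 79% in neuronal regions and 2 and 20% in retMECs, of 9486, 3247, 4135 and 699 probes. Changed probes that the filter removed count as not recovered.

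Named by rank were ranks 1 to 5, the 3 highest and 3 lowest retMEC to neuronal ratios and up to 5 probes by p in each diabetes comparison. Without gene symbols, only 4 IDs were printed: per direction, the 2 shared probes of smallest p over renMECs and carMECs.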

Additional observations from a re-analysis of the deposited data

Results flagged for a closer look

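The diabetes effect on rank 5 differed between carMECs and renMECs, by 1.42 on the log2 scale (SE 0.31, edgeR adjusted p = 0.018 over 13332 probes): it was 1.64 in carMECs, with all 3 diabetic regions above all 3 non-diabetic ones, and 0.22 in renMECs, where the groups overlapped. It passed in 13 of 17 alternatives, with adjusted p from 0.0014 to 0.13. The groups of 3 regions were too small to be searched for single outlying regions.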

How the results depend on the processing

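Counts of shared probes past the threshold (main values in renMECs 16, carMECs 6, retMECs 0, neuronal regions 1, difference between carMECs and renMECs 1) moved by over 1.5 times as follows. In renMECs the count was 9 with total counts, and in carMECs 10 with TMM, 2 without both heart regions whose labels do not name MECs and 0 in 1 model of all 24 regions, which also gave 0 in neuronal regions. DESeq2 called 5 higher and 0 lower in carMECs, against 7 and 0 of 20185 probes. Over all probes 251 of 8721 passed with total counts in renMECs, against 352 of 9486 in the main fit. In carMECs 31 of 2937 passed with TMM and 1 of 11299 in 1 model of all 24 regions, against 30 of 3247. In neuronal regions 1 of 11299 passed in that model, against 51 of 4135. The methods' t-test gave 8 in retMECs (7 higher, 1 lower, against 0.932% and 5.22% of all probes) and 5 in neuronal regions (all lower, against 5.21%, so no more than the background). After Benjamini-Hochberg adjustment it gave 0 in renMECs, carMECs, retMECs and neuronal regions. Over all probes 0, 0, 1 and 2 passed, in the same order, so this is no result about the shared probes. For the difference between the organs the count was 9 with TMM and 10 with DESeq2, all higher in carMECs, as were 65 of 66 and 64 of 64 calls over all probes (0.515% and 1.55% of those tested). With the replicate number as a block, which pairs regions that share only a number, it was 27 in renMECs and 4 for the difference. Calls over all probes rose as well, from 352 to 573 of 9486 and from 18 to 29 of 13332. With single regions left out the counts were 4 to 18 in renMECs, 1 to 6 in carMECs, 0 to 4 for the difference, and 20 to 50 and 31 to 43 for the lists of 1 status in non-diabetic and diabetic retMECs. Calls over all probes were 85 to 411 in renMECs, 6 to 32 in carMECs and 8 to 43 for the difference. Over all probes 191 to 692 and 184 to 353 were higher in non-diabetic and diabetic retMECs. Total counts gave 65 for the list tested in non-diabetic retMECs, in place of 39, against 10.7% and 2.34% of all probes. The causes were not tested. No log2 change of a shared probe named for its call changed sign. Low counts limit the retMEC comparisons, and with 3 regions a group all values rest on few regions.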
